A study of Mus musculus with 4 samples.

Results

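The 33 genes described here are immediate-early genes and genes of the dissociation response, taken by symbol from a fixed list out of 27999 genes in the table. All 33 were found. They were measured in cells of the adult mouse retina by droplet single-cell RNA sequencing. The 4 retinas came from C57BL/6 mice aged 3 months that carry a GFP reporter for Brn3b, the POU factor encoded by Pou4f2 that marks many retinal ganglion cells (RGC). Retinas were dissociated and sorted for GFP, and they form 1 group with no second genotype or treatment. The deposited matrix pools the retinas, and no barcode names its retina, so each class below is 1 sample with no replicate and no test. Values are unique molecular identifiers (UMIs), each a count of 1 captured RNA molecule at its 3′ end. A level is given as UMIs of a gene per 1000000 UMIs of the class (CPM), which does not scale with transcript length. Intervals are 95% and cover counting error only.

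Immediate-early genes are transcribed within minutes of a stimulus, from factors already present in the cell and without new protein synthesis. FOS and JUN proteins pair into the AP-1 complex, EGR proteins bind GC-rich sites, and both switch on later genes. A second tier (DUSP phosphatases, ZFP36, NFKBIA) shuts the response down. Enzymatic dissociation of tissue is a well-known trigger in many cell types, and heat shock chaperones often appear beside it. Every cell here passed through the same dissociation and sort, and no undissociated tissue is among the samples, so a level present in the eye cannot be told apart from one reached during handling.

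Barcodes were assigned to 5 classes by UMIs of genes outside the list. RGC needed Slc17a6 of 1 or more, Rbpms plus Slc17a6 of 3 or more and Lhx1 of at most 1. Horizontal barcodes needed Lhx1 of 2 or more with no Slc17a6, and bipolar barcodes Trpm1 of 2 or more and Pcp2 of 3 or more. Müller glia needed Rlbp1 and Slc1a3 of 3 or more each, and microglia a sum of C1qa, C1qb and C1qc of 20 or more. Of 2636 barcodes kept, 918 were RGC, 405 horizontal, 353 bipolar, 207 Müller and 164 microglia, and 613 met no rule. The filter and doublet removal took 367 of the 720 barcodes that met the bipolar rule, and 32 of 950 RGC. They took 51 of 456 horizontal, 29 of 236 Müller and 28 of 192 microglia barcodes. Bipolar levels thus describe the part of the class that was kept. The RGC, horizontal, bipolar, Müller and microglia marker lists (rule genes included) summed to 9782, 10590, 25104, 39192 and 42732 CPM in their own classes. In any other of the 5 classes a list reached at most 6841 CPM, the Müller list in microglia. Median UMIs per barcode were 15843 in RGC, 11187 in horizontal, 4417 in bipolar, 4659 in Müller and 3828.5 in microglia barcodes. The row for the reporter, EGFP, held 0 UMIs. Glia and bipolar cells are not the target of the sort, and those that came through it may differ from those left behind, which was not tested.

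Some barcodes met 2 rules. Of the 353 bipolar barcodes, 22 also met another rule, and 17 of these were also microglia. Of the 164 microglia, 18 also met another rule, and the bipolar marker list stood at 3028 CPM in the microglia class. The 17 carried 13699 CPM of the listed genes and a median of 7793 UMIs. In the bipolar class C1qa, C1qb and C1qc stood at 247, 292 and 249 CPM by the rule, and at 16.2, 32.4 and 22.2 CPM in the 331 barcodes of 1 class only. Bipolar and microglia values below are by the rule unless barcodes of 1 class are named. Main bipolar results are given both ways. The microglia sum was 8.40 times the RGC level by the rule and 9.43 times without barcodes of 2 classes.

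Serum response factor binds the CArG box and CREB binds the cAMP response element, the classical promoter elements of this response. Of the 33 genes, 27 matched a RefSeq promoter window (GRCm38.p6, 250 bases before to 50 after a transcript start). Egr1, Egr3, Ier2, Hsp90aa1, Cyr61 and Arc did not match. The 60-base stretches below are shown because they hold the exact motif, in capitals, in 5 genes that differed between classes (build GRCm38.p6, each read on the strand of its gene).
Zfp36, chr7:28379253-28379312, minus strand, CArG box: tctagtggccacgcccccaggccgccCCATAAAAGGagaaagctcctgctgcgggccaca
Egr2, chr10:67537771-67537830, plus strand, CArG box: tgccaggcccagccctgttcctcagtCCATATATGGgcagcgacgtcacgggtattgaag
Btg2, chr1:134079288-134079347, minus strand, cAMP response element: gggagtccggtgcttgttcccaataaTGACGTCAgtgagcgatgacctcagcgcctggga
Ppp1r15a, chr7:45526247-45526306, minus strand, cAMP response element: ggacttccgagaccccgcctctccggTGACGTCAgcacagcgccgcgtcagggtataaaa
Dusp1, chr17:26508582-26508641, minus strand, cAMP response element: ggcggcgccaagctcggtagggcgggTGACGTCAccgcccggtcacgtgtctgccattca

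The motif began 58 bases before the annotated start in Zfp36, 166 in Btg2, 12 in Ppp1r15a and 143 in Dusp1. In Egr2 it began 72, 73 or 133 bases before the start, depending on the transcript. Both strands were searched. The cAMP response element, TGACGTCA, lay in 3 of 27 genes and in 2.03% of the 27025 symbols in the table. The CArG box lay in 2 of 27 and in 1.81% of symbols. The AP-1 site, TGANTCA, is not contained in the cAMP response element. It lay in none of the 27 and in 8.97% of symbols. The heat shock element, 3 alternating units of GAA and TTC with 2 free bases between units, lay in none and in 0.662%. These are matches of letters in short windows and not measured binding. In the gene annotation of the same build (GENCODE vM21), Fos lies at chr12:85473890-85477273, Jun at chr4:95049034-95052222, Egr4 at chr6:85511121-85513589, Atf3 at chr1:191170296-191218039 and Npas4 at chr19:4984355-4990316.

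The listed genes made up a far larger share of UMIs in glia than in neurons. RGC barcodes were more numerous and deeper, so their class held the most listed UMIs in all despite the smaller share. The 918 RGC held 51574 listed UMIs, the 207 Müller barcodes 26286 and the 164 microglia 20657. The 33 genes together made up 2.55% of all UMIs in Müller glia (25510 CPM, 25203 to 25820) and 2.79% in microglia (27860 CPM, 27482 to 28243). In RGC they made up 0.332% (3315.5 CPM, 3287 to 3344), in horizontal barcodes 0.208% (2083 CPM, 2041 to 2125) and in bipolar barcodes 0.365% (3649 CPM, 3564 to 3737). Against RGC the sum was 7.69-fold higher in Müller glia (7.58 to 7.81) and 8.40-fold higher in microglia (8.27 to 8.54), and it was 0.628 of the RGC level in horizontal barcodes (0.615 to 0.642). In bipolar barcodes it was 1.10 of the RGC level by the rule (1.07 to 1.13) and 0.868 in barcodes of 1 class only (0.843 to 0.895), so its direction rested on the barcodes that met 2 rules. The map of levels by class shows the glial columns bright for most AP-1 and feedback genes and for Egr1 and Ier2. They are dark for Egr3, Egr4, Npas4, Nr4a2 and Nr4a3, and Cyr61 is bright in Müller glia alone.

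**Figure D1:**
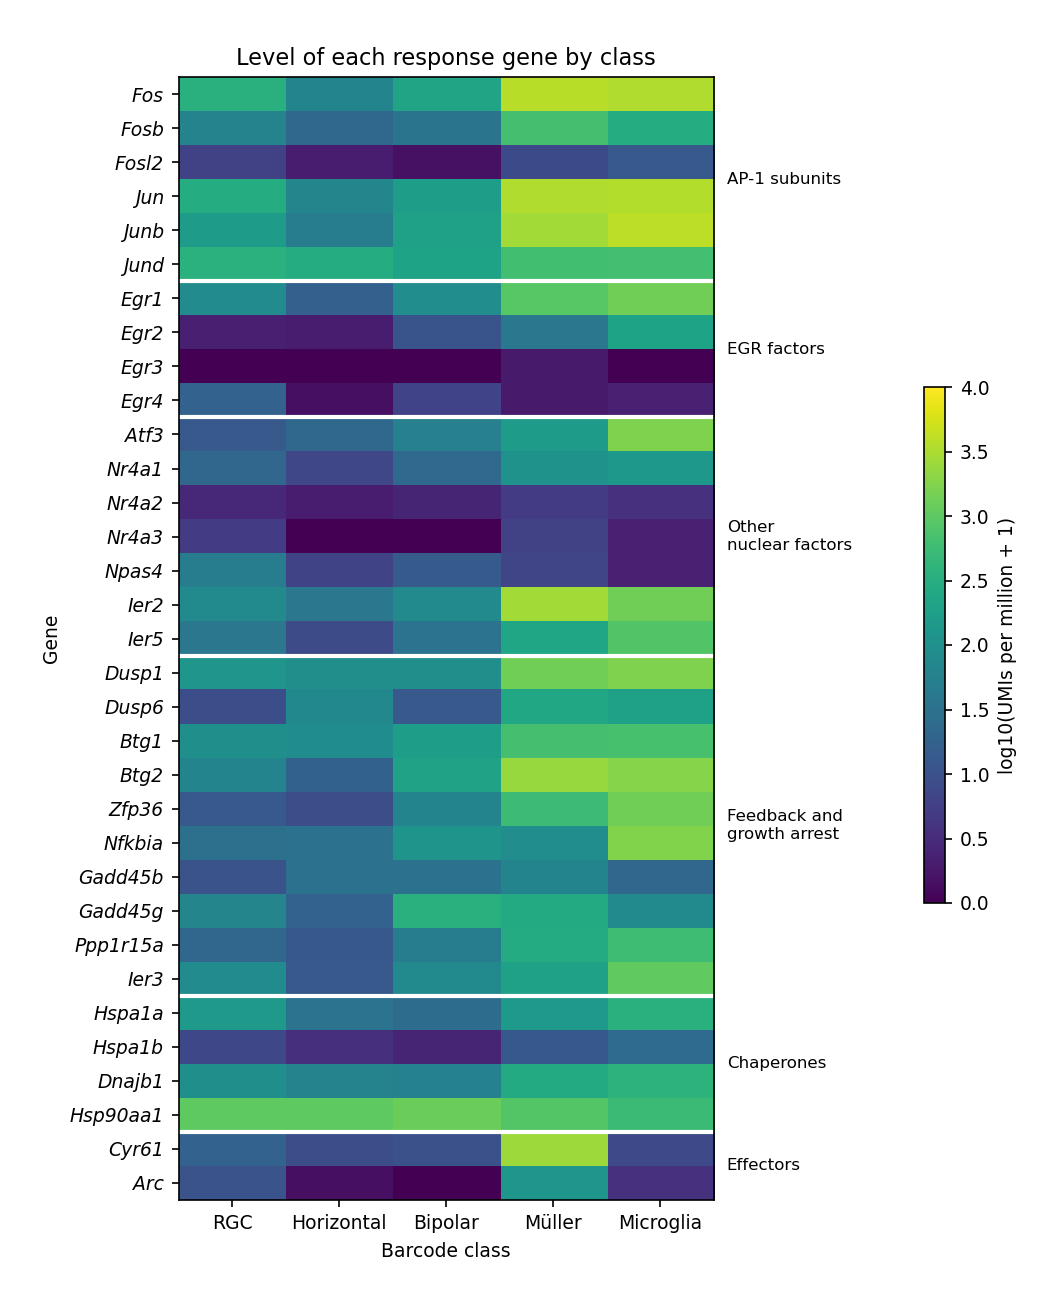
Level of each of the 33 genes (rows, grouped by role) in the 5 barcode classes (columns), as log10 of CPM plus 1. Fos runs from 63.5 CPM in horizontal barcodes to 3771 in Müller glia, while Hsp90aa1 stays between 525 and 1270 in all 5 classes.

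The same held barcode by barcode at equal depth. With each barcode thinned to 3000 UMIs, the 912 RGC of 1 class only held a median of 9 UMIs of the listed genes, the 404 horizontal barcodes 6 and the 331 bipolar barcodes 8. The 206 Müller barcodes held a median of 83 and the 146 microglia 94. Of the Müller barcodes 194 (94.2%) lay above 18 UMIs, the 95th percentile of RGC, and so did 144 of the microglia (98.6%). None of the RGC, horizontal or bipolar barcodes of 1 class lay above the median of either glial class, and the highest RGC held 70 UMIs. The lowest Müller barcode held 1 and the lowest of these microglia 5, so the ranges overlapped at the low end.

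**Figure D2:**
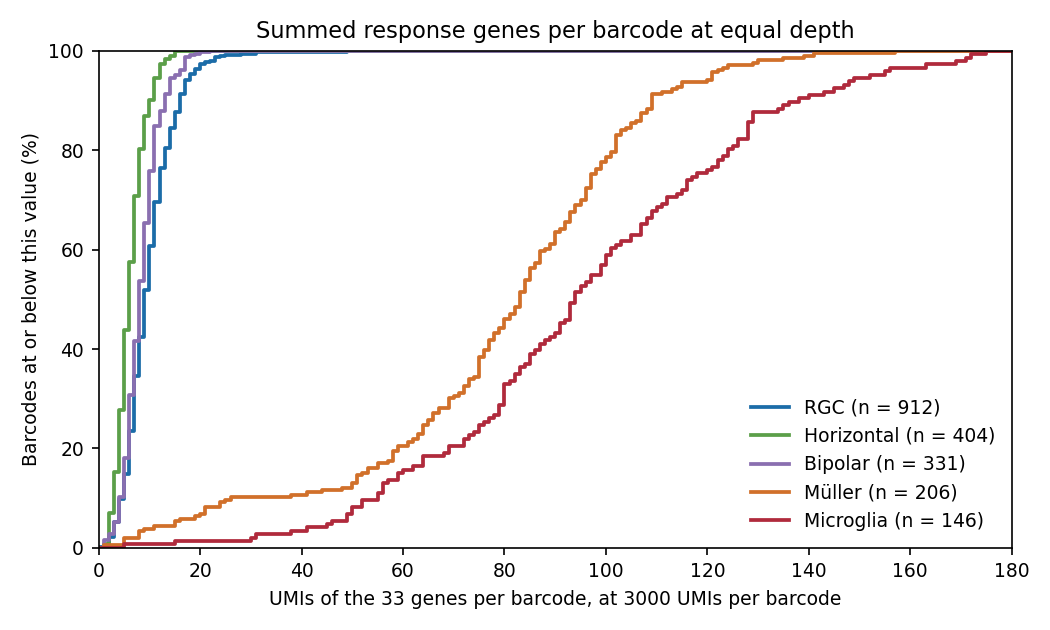
Cumulative share of barcodes (vertical axis, percent) at or below a number of UMIs of the 33 genes (horizontal axis), each barcode thinned to 3000 UMIs, for barcodes of 1 class only. The neuron curves end by 22 UMIs in horizontal and bipolar barcodes and by 70 in RGC, whereas the glial medians are 83 and 94.

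In the following, a gene is called higher or lower where its CPM ratio was 2 or more either way with 100 or more UMIs over both classes. Against RGC, 28 of the 33 genes reached that minimum in Müller glia, and 22 were higher, 2 lower and 4 neither. Of all 10029 genes reaching it, 13.8% were higher and 29.6% lower. In microglia 29 reached it, with 22 higher, 4 lower and 3 neither, against 13% higher and 40.4% lower among 9981 genes. Horizontal barcodes had 2 higher, 17 lower and 9 neither of 28, against 8.8% higher and 19% lower among 10267 genes. Bipolar barcodes had 7 higher, 5 lower and 16 neither of 28, against 11.8% higher and 22.4% lower among 10045 genes. The median log2 ratio was -0.03 there (all genes -0.10). In bipolar barcodes of 1 class only the counts were 4 higher and 14 lower of 28, against 11.6% higher and 24.9% lower among 9967 genes. The median log2 ratio of the genes that reached the minimum was 3.08 in Müller glia and 3.24 in microglia, where the median over all genes was -0.34 and -0.69. It was -1.42 in horizontal barcodes (all genes -0.12) and -1.10 in bipolar barcodes of 1 class (all genes -0.12). Egr3, Fosl2, Nr4a2 and Nr4a3 did not reach the minimum in any class comparison with RGC, and Egr2 did so only in microglia, where it was high.

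AP-1 subunits summed to 9.06 times the RGC level in Müller glia (8.85 to 9.27) and 9.53 times in microglia (9.30 to 9.78). Fos, which pairs with JUN proteins and is the classical marker of a recent stimulus, stood at 349 CPM in RGC, 63.5 in horizontal, 219 in bipolar, 3771 in Müller and 3310 in microglia barcodes. At 3000 UMIs it was seen in 96.1% of Müller, 93.3% of microglia and 58.9% of RGC barcodes, and in 19.5% of horizontal barcodes. Jun, the core partner of FOS, stood in the same classes at 302, 66.4, 170, 3375 and 3494 CPM, high in both glial classes and lowest in horizontal barcodes. Junb, a JUN-family subunit with its own set of partners, was 17.3-fold higher in Müller glia (16.4 to 18.3) and 25.2-fold higher in microglia (23.9 to 26.6). Fosb, a FOS-family subunit, was 11.0-fold higher in Müller glia and 5.06-fold higher in microglia. Jund, the JUN-family subunit that most cells express at rest, did not pass the 2-fold rule in either glial class, at 359 CPM in RGC, 612 in Müller glia and 633 in microglia. Under median-ratio scaling, which sets the median ratio over all genes to 1, Jund passed 2-fold in both. Fosl2 stayed at or below 12.1 CPM in all 5 classes.

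Horizontal barcodes were at the low end. There Fos was 5.50-fold lower than in RGC (4.89 to 6.21), Jun 4.55-fold (4.05 to 5.13), Junb 3.41-fold (2.97 to 3.95) and Fosb 2.91-fold lower (2.35 to 3.64). Jund was 0.837 of the RGC level. In bipolar barcodes of 1 class Fos was 2.68-fold lower (2.34 to 3.08), Jun 3.86-fold (3.24 to 4.63), Junb 2.61-fold (2.14 to 3.22) and Fosb 3.93-fold lower (2.64 to 6.10). By the rule, with the barcodes of 2 classes in, none of these 4 passed 2-fold and Junb was at 1.22 of the RGC level.

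Members of the EGR family separated RGC from glia in both directions. Egr1, a zinc-finger factor induced by growth factors and activity, stood at 84.6 CPM in RGC, 15.6 in horizontal, 90.3 in bipolar, 922 in Müller and 1350 in microglia barcodes. In bipolar barcodes of 1 class it was at 32.4 CPM. Egr2, known in myelinating glia and in macrophages, reached 206 CPM in microglia (175 to 242) and 38.8 in Müller glia, and it was at 1.29 CPM in RGC, 1.10 in horizontal and 10.0 in bipolar barcodes (1.803 in those of 1 class). Egr4 had the opposite order: 269 UMIs in RGC (17.3 CPM) but 2 in horizontal, 1 in Müller and 1 in microglia barcodes. The RGC level was 17.8 times that of Müller glia (3.17 to 706) and 12.8 times that of microglia (2.28 to 508), wide intervals set by the single UMIs. Egr3 had 1 UMI, in a Müller barcode. It was seen in 0 of 918 RGC. With 3 barcodes taken as the limit for 0, up to 0.327% of RGC may hold a UMI of it. This sets no limit on RGC that express it.

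Among the other nuclear factors, Ier2, a small growth-factor-induced protein, was at 2773 CPM in Müller glia, 34.5-fold above RGC (32.2 to 36.9), and at 1334 in microglia. Ier5 was 5.87-fold higher in Müller glia (5.01 to 6.84) and 21.5-fold higher in microglia (19.2 to 24.1). Atf3, a stress-induced bZIP factor also known from injured RGC, was at 12.2 CPM in RGC, 21.8 in horizontal, 53.3 in bipolar, 163 in Müller and 1706 in microglia barcodes. In bipolar barcodes of 1 class it was at 9.01 CPM. At 3000 UMIs it was seen in 87.2% of microglia and 2.29% of RGC. Nr4a1, an orphan nuclear receptor, was 5.45-fold higher in Müller glia (4.36 to 6.78) and 6.70-fold higher in microglia (5.30 to 8.42). Npas4, a factor induced by neuronal depolarization and calcium, had its highest level in RGC. It stood at 48.3 CPM in RGC, 12.7 in bipolar, 5.82 in Müller, 5.72 in horizontal and 1.35 in microglia barcodes. It was 8.45-fold lower in horizontal barcodes than in RGC (5.72 to 13.0) and 4.71-fold lower in bipolar barcodes of 1 class (2.92 to 8.13). Nr4a2 and Nr4a3 were at or below 4.85 CPM in all 5 classes.

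All 10 feedback and growth-arrest genes were higher in Müller glia, and 9 of 10 in microglia, where Gadd45g was at 1.24 of the RGC level. Their sums were 12.03 times (11.6 to 12.4) and 18.2 times (17.6 to 18.8) the RGC sum. Btg2, an antiproliferative cofactor of mRNA deadenylation and one of the promoters printed above, reached 2399 CPM in Müller glia and 1845 in microglia against 63.4 in RGC. Dusp1, which dephosphorylates p38, JNK and ERK kinases, reached 1346 and 1659 against 120 CPM. Dusp6, an ERK phosphatase, was 30.8-fold higher in Müller glia (24.8 to 38.4) and 23.3-fold higher in microglia (18.2 to 29.8). Zfp36, which destabilizes cytokine mRNA, was 46.0-fold higher in Müller glia (38.9 to 54.6) and 115-fold higher in microglia (98.3 to 135). Nfkbia, the inhibitor that holds NF-kB in the cytoplasm, stood apart between the glia, at 91.2 CPM in Müller glia and 1751 in microglia, a 19.2-fold difference (15.6 to 23.9). Ier3, a stress-induced survival regulator, likewise stood at 193 and 1064 CPM. Ppp1r15a, which directs a phosphatase to eIF2-alpha, reached 290 and 572 against 19.6 CPM in RGC, and Btg1, a relative of Btg2, 651 and 693 against 98.8.

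Neurons differed among themselves in the feedback genes. Dusp6 was 8.94-fold higher in horizontal barcodes than in RGC (7.26 to 11.1) and Gadd45b, a stress sensor of the GADD45 family, 3.26-fold higher (2.58 to 4.12), the only 2 of the 33 genes that were higher there. Btg2, Gadd45g and Ier3 were 3.84-fold, 3.79-fold and 6.91-fold lower in horizontal barcodes. In bipolar barcodes of 1 class Gadd45g stood at 367 CPM, 5.74-fold above RGC (5.18 to 6.36) and above its level in either glial class. Gadd45b was 3.07-fold higher (2.19 to 4.26), Btg2 2.56-fold (2.23 to 2.94) and Nfkbia 2.09-fold higher (1.67 to 2.61). Zfp36 and Ppp1r15a were higher in bipolar barcodes by the rule, at 5.17-fold and 2.37-fold. They were at 1.11 and 1.40 of the RGC level in barcodes of 1 class.

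The chaperones differed little between classes as a sum. It was 1.05 of the RGC level in Müller glia (0.991 to 1.11), 1.03 in microglia (0.969 to 1.10), 0.888 in horizontal (0.860 to 0.916) and 1.09 in bipolar barcodes (1.05 to 1.14), or 1.11 in those of 1 class (1.06 to 1.16). Under median-ratio scaling it was 1.32 in Müller glia and 1.67 in microglia. The sum was carried by Hsp90aa1, the inducible cytosolic HSP90, at 999.7 CPM in RGC and 525 in microglia. Dnajb1, the HSP40 co-chaperone of HSP70, was 2.93-fold higher in Müller glia (2.57 to 3.33) and 4.02-fold higher in microglia (3.53 to 4.56). Hspa1a, the heat-inducible HSP70, stood at 137 CPM in RGC, 144 in Müller glia, 349 in microglia, 32.5 in horizontal and 25.3 in bipolar barcodes (18.6 in those of 1 class). Hspa1b, its neighbour on chromosome 17, stayed at or below 24.3 CPM. The transcripts of Hspa1a and Hspa1b were identical at 92.8% of 2748 aligned bases, and their last 500 bases at 62.7%, and how many reads fell where the copies match was not tested. Hsp90aa1 alone supplied 30.2% of the listed UMIs in RGC and 48.2% in horizontal barcodes, but 3.38% in Müller glia and 1.88% in microglia.

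The 2 effector genes marked Müller glia. Cyr61 (Ccn1 in GENCODE vM21, chr3:145646976-145649981), a secreted matrix protein and target of SRF and YAP, stood at 2563 CPM in Müller glia (2466 to 2663). In RGC it was at 17.4, in bipolar at 8.98 (8.41 in those of 1 class), in horizontal at 7.91 and in microglia at 6.74 CPM. Unlike Fos and Jun it was not high in microglia, and the ratio between the glia was 380 (163 to 1170). Under median-ratio scaling its level in microglia was no longer 2-fold below that in RGC. At 3000 UMIs it was seen in 93.2% of Müller barcodes and 3.05% of microglia. Of 3 endothelial markers, which gauge vessel cells among Müller barcodes, Cldn5 and Pecam1 had 3 and 2 UMIs there, and Flt1 stood at 409 CPM. The sum of the 3 was 413 CPM in Müller glia and at most 9.39 in the other classes. At 3000 UMIs Flt1 was seen in 63.8% of Müller barcodes, Cldn5 in 0% and Pecam1 in 0.483%. The sum there thus followed Flt1 and not the 3 markers together. Arc, a synaptic capsid-like protein known from active neurons, was also highest in Müller glia, at 124 CPM against 9.58 in RGC. It had 2 UMIs in horizontal barcodes, 2 in microglia and 0 in 353 bipolar barcodes. With 3 barcodes as the limit, up to 0.850% of bipolar barcodes may hold a UMI of it, again no limit on expression.

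Free RNA from broken cells can add UMIs to any barcode. Cyr61 was high in Müller glia alone. If all Cyr61 elsewhere were free RNA, which was not tested, it would give a value for the part from Müller glia. In the 729 RGC at 12000 UMIs its variance was 1.55 times its mean, where the 90th percentile of genes of like mean was 1.17. As another gauge, 6 rod markers summed to 661 CPM in RGC, 618 in horizontal, 2680 in bipolar, 1726 in Müller and 1856 in microglia barcodes. The Cyr61 level in RGC was 0.680% of that in Müller glia. The same share of the Müller level would be 25.6 CPM of Fos, 22.9 of Jun and 18.8 of Ier2, and RGC held 349, 302 and 80.4. In horizontal barcodes the share was 0.309%, which would be 11.6 CPM of Fos where 63.5 were measured, and 7.41 CPM of Btg2 where 16.5 were measured. Free RNA from microglia, low in Cyr61 and high in Fos, is not covered by these values. The part of free RNA in the class differences was not tested further.

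Mitochondrial share, a sign of damaged cells, differed between classes, with medians of 3.94% in RGC, 6.86% in horizontal, 8.47% in bipolar, 6.59% in Müller and 2.41% in microglia barcodes. Within RGC the listed sum was nearly level over 4 equal groups by this share, between 3263 and 3354 CPM. In horizontal barcodes it went from 2180 CPM in the lowest group to 1960 in the highest. In bipolar barcodes by the rule it stood at 4611, 3328, 3682 and 2605 CPM from the lowest group to the highest. Microglia by the rule, with the barcodes of 2 classes in, went from 34255 to 19881 CPM. Müller glia were lowest in their lowest group, at 20087 CPM, and stood between 26746 and 28005 in the others. Among barcodes with 4% to under 8%, a range chosen after seeing the data, the sum was 8.11-fold higher in Müller glia than in RGC and 6.385-fold higher in microglia. The part of mitochondrial share in the class levels was not tested beyond this. In 4 equal groups by total UMIs, the RGC sum was 3522 CPM in the lowest group and 3164 in the highest. These values were 2043 and 2267 in horizontal, 2316 and 4694 in bipolar, 26046 and 21440 in Müller and 33886 and 19805 in microglia barcodes. The part of depth was not tested.

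**Figure D3:**
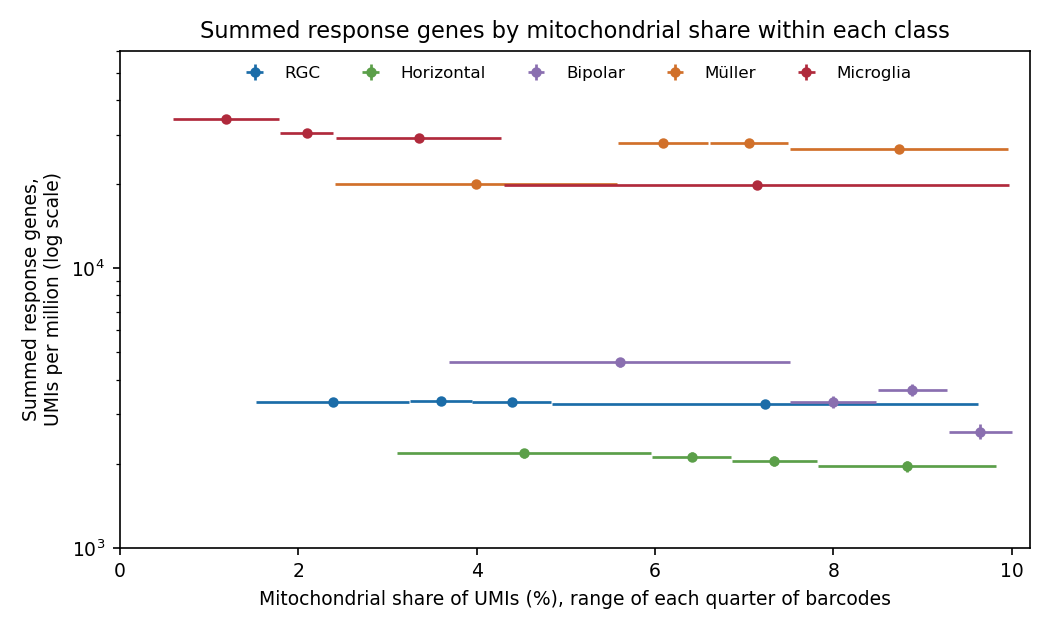
Summed level of the 33 genes in classes by the rule (vertical axis, CPM, log scale) in 4 equal groups of each class by mitochondrial share (horizontal axis, percent). Horizontal bars span the group and vertical bars are 95% counting intervals. Müller glia and microglia lie between 19881 and 34255 in every group and the 3 neuron classes between 1960 and 4611.

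Within RGC the listed genes varied beyond counting. Of the 918 RGC, 729 with 12000 or more UMIs were thinned to that depth. They held between 12 and 101 UMIs of the listed genes, with a median of 38 and quartiles of 29 and 47. The standard deviation was 14.4, and counting alone would give 6.31. Hspa1a had a variance of 4.41 times its mean, Jun 4.17, Fos 3.35, Egr4 2.62, Ier2 2.35 and Junb 2.21. Among all genes of like mean the median was 1.03 (mean 0.1 to 0.5 UMIs, the range of Egr4, 4163 genes), 1.07 (mean 0.5 to 2 UMIs, 2791 genes) and 1.18 (mean 2 to 8, 882 genes), with 90th percentiles of 1.17, 1.33 and 1.81. Atf3, Nfkbia and Zfp36 were close to counting, at 1.03, 1.02 and 1.07.

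Across RGC, summed AP-1 and EGR counts were set against the other groups of listed genes. The correlation of log counts over the 729 RGC was 0.43 with the feedback genes, 0.37 with the other nuclear factors and -0.01 with the chaperones, all from the same libraries at 1 depth. At 3000 UMIs these were 0.17, 0.22 and 0.04 in RGC. In Müller glia at 3000 UMIs the first and last were 0.72 and 0.15, and in microglia of 1 class only 0.67 and 0.17. In horizontal barcodes, where these genes were low, no value exceeded 0.08 in size. Genes outside the list that were among the 10 most like the listed sum were Hspa8 (r 0.27), Eif3f (0.26), Nell2 (0.24), Pou4f1 (0.22), Rpl4 (0.21), Lmo1 (0.20), Rbfox1 (0.20), Magi1 (0.20) and Car10 (0.19), over 729 RGC and 8733 genes. These are weak values in sparse counts, against a 99th percentile of 0.12 over all genes. The share of RGC with both genes of a listed pair was set against the product of their separate shares. The median ratio over 406 pairs at 12000 UMIs was 1.03 (range 0.238 to 2.27), and 284 pairs lay above 1. At 3000 UMIs it was 1.10 over 190 pairs, of which 143 lay above 1. A gene seen in nearly all RGC, such as Hsp90aa1 (100%) or Jund (97.0%), holds its ratios near 1. The median therefore cannot show that the genes vary apart.

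RGC with Opn4 of 3 or more, the melanopsin photopigment of intrinsically photosensitive RGC, numbered 63. Those with Tbx20 of 1 or more, a T-box factor known in a subset of these cells, numbered 82, and 46 barcodes met both rules. Both rules are easier to meet at greater depth, and the 46 barcodes had a median of 21114.5 UMIs against 15848 in the 819 RGC that met neither. The 36 barcodes with Tbx20 only had a median of 12788. The listed sum itself moved with depth. In 4 equal groups by total UMIs it was 3026 CPM in the lowest and 2530 in the highest in Opn4 RGC. In Tbx20 RGC it was 4190 and 2726 CPM. The part of depth in the subset levels was not tested. The listed sum in Opn4 RGC was 0.833 of that in the other RGC (0.805 to 0.862) and in Tbx20 RGC 0.943 (0.914 to 0.972). Among barcodes with a mitochondrial share of 4% to under 8% both directions turned, at 1.03 with 19 Opn4 barcodes and 1.14 with 20 Tbx20 barcodes. Of 28 genes that reached the minimum in Opn4 RGC, 0 were higher and 4 lower, against 2.61% higher and 5.85% lower among 9644 genes. The median log2 ratio was -0.18 (all genes -0.04). In Tbx20 RGC 3 of 28 were higher and 1 lower, against 2.03% and 4.16% of 9644, with a median of -0.15 (all genes -0.03). Egr1 and Nr4a1 are among these 3 and were known to be higher beside Tbx20 when the members were chosen. The count of higher genes was thus partly fixed in advance.

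Jun was the most abundant gene to differ in Opn4 RGC, at 99.1 CPM (82.4 to 118) against 320 in the other RGC, 3.22-fold lower (2.70 to 3.89). Npas4 was at 24.0 against 50.4 CPM, 2.10-fold lower (1.46 to 3.14). Egr4 (11 UMIs) and Dusp6 (5 UMIs) were 2.05-fold (1.13 to 4.16) and 2.13-fold lower (0.890 to 6.69), the latter within counting error of no difference. Junb and Egr1 did not fall with Jun, at 1.25 and 1.38 of the level in the other RGC. Nr4a3 was under the minimum but had 23 of its 63 RGC UMIs in the 63 Opn4 barcodes, 18.4 CPM against 2.80, a ratio of 6.57 (3.76 to 11.3). Nr4a2 had 12 UMIs there, 8 of them in 1 barcode.

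In Tbx20 RGC Egr4 stood at 41.5 CPM against 14.8 (2.80-fold, 2.07 to 3.75), Nr4a1 at 39.4 against 18.1 (2.17-fold, 1.60 to 2.91) and Egr1 at 155 against 77.4 (2.00-fold, 1.73 to 2.31). Dusp6, with 4 UMIs, was 3.15-fold lower (1.20 to 11.7). Egr4 and Egr1 had higher levels in the 36 barcodes that met the Tbx20 rule alone than in the 46 that also met the Opn4 rule. In the 36 barcodes Egr1 stood at 232 CPM (192 to 279), Egr4 at 102 (76.1 to 134), Junb at 341 (291 to 396) and Jun at 395 (342 to 454). Against the 819 RGC in neither subset, Egr4 was 6.82-fold higher (4.92 to 9.30), Egr1 3.03-fold (2.48 to 3.68), Junb 2.28-fold (1.94 to 2.67) and Btg2 2.18-fold higher (1.67 to 2.81). This comparison was not among those planned, and the share of all genes 2-fold higher was not computed for it. The values describe single genes and give no count over the list. Egr4 was seen in 15 of these 36 barcodes at full depth, and the highest of them held 9 of its 51 UMIs. In the 46 barcodes that met both rules Egr4 was at 9.51 CPM, Jun at 104 and Egr1 at 114.

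**Figure D4:**
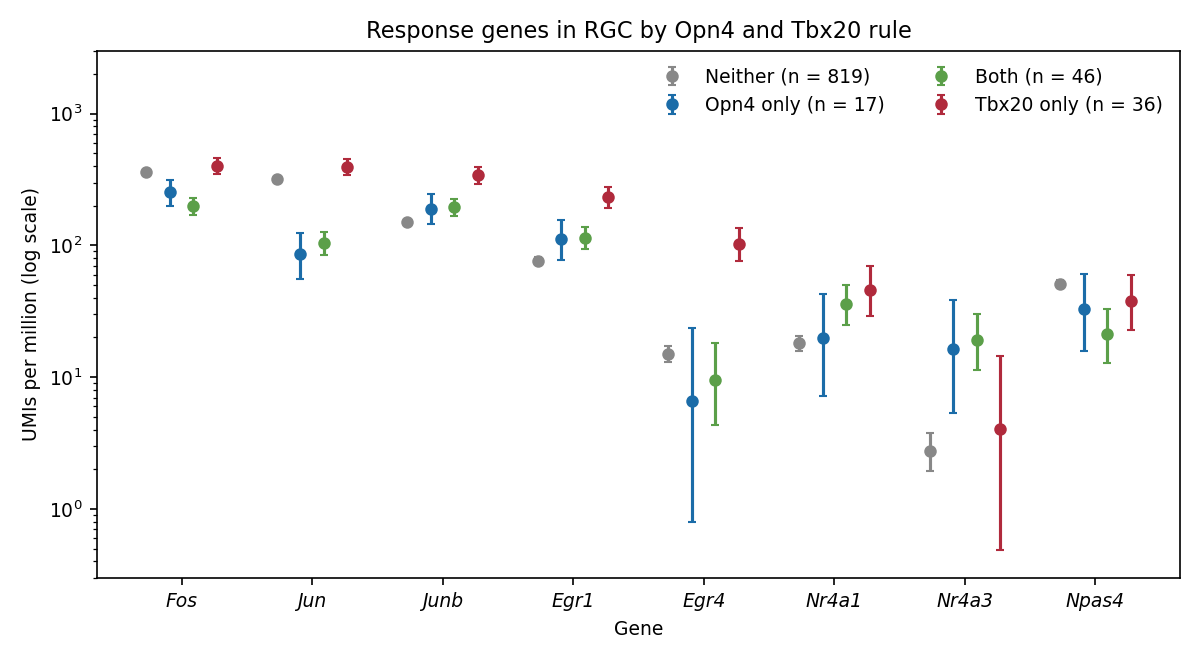
Level of 8 of the listed genes (CPM, log scale, with 95% counting intervals) in RGC that met neither, either or both of the Opn4 and Tbx20 rules. Egr4 is at 102 in barcodes with Tbx20 only and at 9.51 where both rules were met, and Jun is at 85.4 and 104 in the groups with Opn4 and at 317 and 395 in the others.

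Genes of the same pathways that are not on the list were read from 5 companion lists, whose counts stand beside the shares of all genes: 13.8% higher and 29.6% lower in Müller glia, 13% and 40.4% in microglia, 8.8% and 19% in horizontal barcodes, 11.8% and 22.4% in bipolar barcodes and 11.6% and 24.9% in those of 1 class. In Opn4 RGC these shares were 2.61% and 5.85%, and in Tbx20 RGC 2.03% and 4.16%. Of 40 other immediate-early and activity genes, 33 reached the minimum in Müller glia, with 23 higher and 3 lower, and 34 in microglia, with 19 higher and 8 lower. Müller glia were led by Id3 (1183 against 9.13 CPM), Hes1 (2346 against 19.4) and Id1 (824 against 8.61), factors that hold back neuronal differentiation. Microglia were led by Klf2 (3051 against 17.3), Socs3 (681 against 3.99), a brake on cytokine signalling, and Sgk1 (1693 against 24.2), a serum- and glucocorticoid-induced kinase. Bdnf, a neurotrophin gene, and Vgf, a neuropeptide precursor gene, both regulated by activity, were lower in both, at 112 and 55.5 CPM in RGC. Bdnf was 11.5-fold lower in Müller glia (6.24 to 24.0) and 20.7-fold lower in microglia (8.06 to 76.0). Horizontal barcodes had 3 higher and 8 lower of 30, with Sgk1 16.9-fold higher (15.1 to 18.9) and Bdnf 127-fold lower (49.5 to 466). Bipolar barcodes had 8 higher and 10 lower of 32, and 5 and 13 of 31 in those of 1 class. They were led by Gem, a small GTPase that restrains calcium channels, at 230 CPM by the rule and 241 in barcodes of 1 class against 3.34 in RGC. In Opn4 RGC 2 of 28 were higher and 4 lower, and in Tbx20 RGC 1 and 2, with Id3 among the higher genes in both. Klf2, 6.90-fold higher in bipolar barcodes by the rule, was at 0.586 of the RGC level in barcodes of 1 class.

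Of 17 chaperones outside the list, 16 reached the minimum in Müller glia with 2 higher and 8 lower, and in microglia with 3 higher and 6 lower, where 29.6% and 40.4% of all genes were lower, so the share lower in microglia was near that of all genes. Under median-ratio scaling these were 3 higher and 2 lower in Müller glia and 3 and 3 in microglia. Hspa8, the constitutive HSP70, was 2.39-fold lower in Müller glia (2.24 to 2.55), a difference under 2-fold with that scaling. Cryab, a small heat shock protein abundant in Müller glia, stood at 2158 CPM there against 9.84 in RGC. Hspa5, the chaperone of the endoplasmic reticulum, was 8.06-fold higher in microglia (7.22 to 8.97). In horizontal barcodes 2 of 17 were lower, Hspb1 and Hsph1, and none higher. Bipolar barcodes had 3 higher and 3 lower of 16, and 2 and 4 of 16 in those of 1 class. Neither RGC subset had any of 16 in either direction.

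Stress-response genes under ATF4 and the unfolded protein response showed 1 higher and 3 lower of 12 in Müller glia, and 5 higher and 5 lower of 13 in microglia. The shares lower were near those of all genes, 29.6% and 40.4%. Chac1, a glutathione-degrading ATF4 target, was at 33.2 CPM in RGC and had 0 UMIs in Müller glia and in microglia. With 3 counts put in place of 0, it was 11.4-fold and 8.20-fold lower. The exact intervals began at 9.23-fold and 6.64-fold. Asns, asparagine synthetase, was 20.7-fold lower in Müller glia (9.48 to 56.4). Txnip, a thioredoxin inhibitor, was at 260 CPM in microglia against 1.16. Bipolar barcodes had 0 higher and 4 lower of 12, by the rule and in those of 1 class, and horizontal barcodes 0 in either direction. Opn4 RGC had 1 higher, Cdkn1a at 50.4 against 18.2 CPM, and 3 lower, with Chac1 at 7.19 against 35.4. Tbx20 RGC had 1 higher and 1 lower, the same 2 genes.

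Of 20 upstream regulators 19 reached the minimum in each class comparison with RGC. Srf, which binds the CArG box printed above, was 10.0-fold higher in Müller glia (7.77 to 12.8), at 105 against 10.5 CPM. Mef2c was 49.1-fold higher in microglia (40.3 to 60.1). Mapk10, the neuronal JNK3 kinase, was 5.96-fold lower in Müller glia (4.46 to 8.15) and 24.7-fold lower in microglia (12.5 to 57.2). In all, 3 were higher and 9 lower in Müller glia, and 5 higher and 7 lower in microglia. The 3 higher in Müller glia and the 7 lower in microglia were near the shares of all genes, 13.8% and 40.4%. Under median-ratio scaling these counts were 3 and 4, and 7 and 3. Horizontal barcodes had 0 higher and 4 lower of 19, and bipolar barcodes 4 and 5, or 3 and 5 in those of 1 class. Camk4, a nuclear calcium-dependent kinase, was the 1 of 18 that was lower in either RGC subset, 7.12-fold in Opn4 RGC (3.03 to 22.0) and 4.12-fold in Tbx20 RGC (2.22 to 8.65). Among 15 cytokines and chemokines, 8 of the 9 that reached the minimum were higher in microglia, led by Il1b (174 against 0.321 CPM), Cxcl2 (223 against 0.450) and Tnf (600.2 against 1.35). Il1b, Cxcl2 and Tnf had 5, 7 and 21 UMIs in RGC and reached the minimum only through microglia. That count of higher genes was thus partly fixed by the minimum. Müller glia had 2 higher of 4 and horizontal barcodes 1 higher and 1 lower of 5. Each RGC subset had 1 lower of 3, Hbegf, a shed EGF-family growth factor. In bipolar barcodes 4 of 5 were higher by the rule, and 0 of 3 in those of 1 class. Ccl4, Ccl2 and Ccl12 were 9.74-fold, 14.6-fold and 9.27-fold higher there, and at 1.34, 0.730 and 0.833 of the RGC level in barcodes of 1 class.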

How the data were processed

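The labels' protocols name dissociation, GFP sorting and the 10x Chromium 3′ V2 kit, and the submitters' processing notes name Cell Ranger, Seurat 2.2 and mm10. The deposited values are raw UMI counts per gene and barcode for 3237 barcodes (31361961 UMIs, 3198 to 53709 per barcode). How barcodes were called as cells is not given in the sources used here. Barcodes with 500 or more genes and under 10% mitochondrial UMIs were kept, and Scrublet (scanpy 1.11.5, seed 0) removed 63 of 2699 (2.33%), leaving 2636. UMIs were summed per class. Levels carry exact Poisson intervals, ratios exact conditional intervals and shares Clopper-Pearson intervals, at 95%. The limit printed for a gene seen in 0 barcodes is instead 3 over the number of barcodes. With 1 pooled sample, no test was run. Equal-depth values used barcodes thinned without replacement to 3000 UMIs (12000 within RGC, leaving out 189). Alternatives changed the barcode filter, doublet removal, class overlap, weighting, scaling, the UMI minimum and the thinning, and a mitochondrial range was added after seeing the data. All 33 genes are accounted for. From companion lists, up to 3 genes per direction furthest from 1 were open to naming. The members and lists were chosen with earlier results of these data known, including higher Egr1 and Nr4a1 beside Tbx20. Ratios were tested on simulated data. Python 3.11.15, numpy 2.4.6, scipy 1.17.1 and pandas 2.3.3 were used. Of the genes most like the listed sum, 1 is not reported here.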

Additional observations from a re-analysis of the deposited data

How the results depend on the processing

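Depth limits what can be said of genes under 100 UMIs, and with 1 pooled sample the spread between retinas is unknown. No paired analysis was possible because no barcode names its retina and no test was run. The summed Müller and microglia ratios stayed well above 1 and the horizontal ratio below 1 under the 8 alternatives for sums that were planned and the 1 added after seeing the data (mitochondrial share of 4% to under 8%). Main sums were 0.628 (horizontal), 1.10 (bipolar), 7.69 (Müller), 8.40 (microglia), 0.833 (Opn4) and 0.943 (Tbx20). With no filter they became 0.995 (bipolar, turned), 7.35 (Müller) and 7.14 (microglia). With under 5% mitochondrial UMIs they became 0.737 (horizontal), 2.33 (bipolar, 10 barcodes), 5.30 (Müller) and 9.16 (microglia). With doublets kept, Müller became 7.45 and microglia 7.26. Without barcodes of 2 classes, bipolar turned to 0.868, and Müller and microglia became 7.83 and 9.43. Weighting barcodes equally gave 0.611 (horizontal), 0.993 (bipolar, turned), 8.91 (microglia) and 0.992 (Tbx20). Leaving out the highest 5% of barcodes gave 0.904 (bipolar, turned) and 7.82 (Müller). Median-ratio scaling, which removes the median log2 ratio over all genes (-0.69 in microglia, -0.34 in Müller glia), gave 0.685 (horizontal), 1.18 (bipolar), 9.72 (Müller) and 13.5 (microglia), and totals without mitochondrial genes 0.646 (horizontal), 1.15 (bipolar) and 7.89 (Müller). The added range gave 1.25 (bipolar), 8.11 (Müller), 6.385 (microglia), 1.03 (Opn4, turned) and 1.14 (Tbx20, turned). Counts of genes 2-fold higher moved from 7 to 17 (under 5%), 4 (1 class only) and 4 (highest 5% out) in bipolar, and from 0 to 4 (minimum of 10 UMIs) and 6 (added range) in Opn4 RGC. In Tbx20 RGC they moved from 3 to 1 (highest 5% out), 5 (minimum of 10) and 8 (added range). Counts 2-fold lower moved in bipolar from 5 to 1 (under 5%), 14 (1 class only), 9 (equal weight), 13 (highest 5% out) and 2 (added range). They moved in Müller glia from 2 to 1 (under 5%), in microglia from 4 to 1 (added range), in Opn4 RGC from 4 to 2 (under 5%) and 2 (equal weight), and in Tbx20 RGC from 1 to 2 (added range). The median share of RGC with a UMI of a listed gene was 10.5% at 3000 UMIs and 39.6% at full depth, where more UMIs were read. Apart from the alternatives' own construction, the causes were not tested.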
